A study of Homo sapiens with 6 samples.

Results

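The ERK pathway feedback genes are genes that the kinase ERK switches on and whose products mostly restrain the same pathway or carry its signal to other genes. They were chosen as a list of 10 symbols, matched by Ensembl ID without version number to the gene table of this study: DUSP4, DUSP5, DUSP6, SPRY2, SPRY4, SPRED1, ETV4, ETV5, EGR1 and FOSL1. All 10 had a row among the 13449 genes, so no member was absent. The cells were the melanoma line SK-MEL-28, which came from a human skin tumour and carries an activating BRAF mutation, and every group was this 1 line. They were transfected with Lipofectamine and either an siRNA against DANCR, a long noncoding RNA (siDANCR, 3 libraries), or a non-targeting siRNA (control, 3 libraries), and poly(A) RNA was sequenced.

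The one measurement used is the authors' mean normalised count of each gene over the 6 libraries, siDANCR and control together. It carries no value per library, so it has no SD and no n of its own, and the table does not give the depth of each library. The remaining 5 columns of numbers hold the authors' own comparison of siDANCR with control and were not used. The values therefore describe how strongly each gene was expressed in the pooled cells, and no response of any gene to siDANCR is given. The means summed to 15059759 over the 13449 genes, from 23.1 upward with a median of 322.5, and the 10 feedback genes made up 0.293% of that sum.

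In the ERK pathway, growth factor receptors act through RAS to activate RAF kinases, which phosphorylate MEK, which phosphorylates ERK. Active ERK phosphorylates ETS-family and other transcription factors, and the genes these switch on include phosphatases that dephosphorylate ERK and adaptor proteins that block steps above it. In melanoma cells with an activating BRAF mutation RAF signals without RAS, and transcripts of this kind are widely used as a readout of pathway output.

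The strands of the siRNAs in the study's list of oligonucleotides are shown because they define the groups. The labels do not say which of the DANCR siRNAs was used for sequencing, and siDANCR1 is the one in the study's source data. Each is written 5′ to 3′, and capitals mark bases 2 to 8 of the antisense strand, the seed through which a small RNA first pairs with a transcript.
siDANCR1 sense: cccuucaguuacaauagga
siDANCR1 antisense: uCCUAUUGuaacugaaggg
siDANCR2 sense: gaaccguuaucuaggcgcu
siDANCR2 antisense: aGCGCCUAgauaacgguuc
siControl sense: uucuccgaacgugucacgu
siControl antisense: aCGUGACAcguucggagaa

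Most feedback genes were strongly expressed. Levels were compared between genes as mean normalised counts per kilobase (kb) of the canonical transcript, since a longer transcript yields more reads. On that scale the 10 genes had a median of 700.7 per kb, against 111.6 per kb over the 13029 genes of the table that had a canonical transcript. Of the 10, 9 lay above the median of all genes and 5 lay in the top 10%, which began at 608.8 per kb. The order, high to low, was DUSP4, ETV5, ETV4, SPRY2, SPRY4, FOSL1, SPRED1, DUSP6, EGR1 and DUSP5. Without a spread between libraries it cannot be said which neighbours in this order differ beyond their error. DUSP4 and ETV5 led and DUSP5 was last at each length used, while the order between them held with the longest transcript but not otherwise. With coding length it was SPRY4, SPRED1, SPRY2, ETV4, DUSP6, FOSL1 and EGR1. Without division by length it was SPRED1, SPRY4, ETV4, SPRY2, DUSP6, EGR1 and FOSL1.

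**Figure D1:**
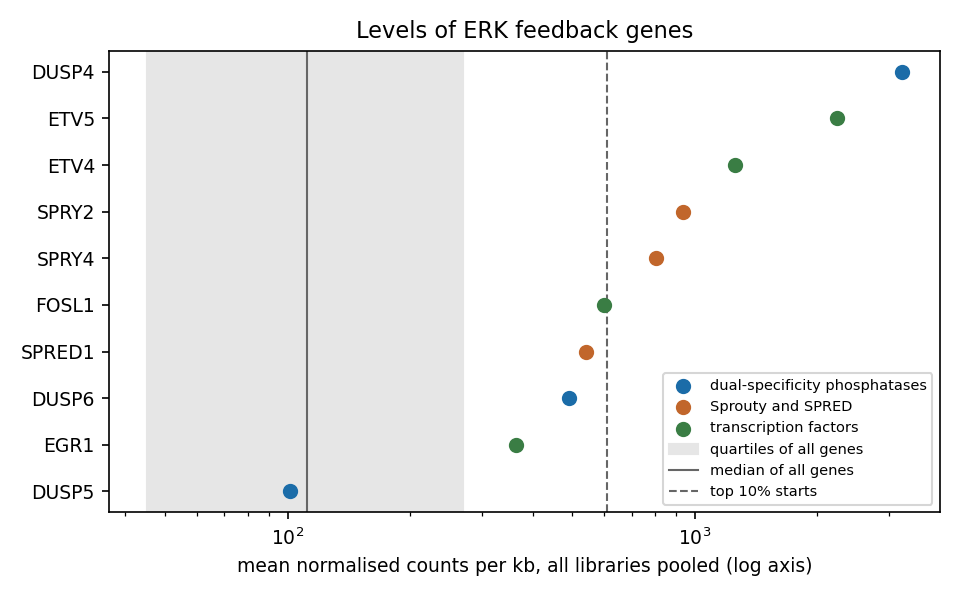
Level of each feedback gene as the authors' mean normalised count per kb of canonical transcript, on a log axis, 1 point per gene over all 6 libraries. Grey marks the range between the quartiles of all genes (45.2 to 269.7 per kb), the solid line their median (111.6 per kb) and the dashed line the start of the top 10% (608.8 per kb). Only DUSP5 lies within the grey band, and DUSP4 stands highest at 3226 per kb.

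The dual-specificity phosphatases, which remove phosphate from ERK, spanned the whole range of the list. DUSP4 (ENSG00000120875, chromosome 8 from 29190581 to 29208201, minus strand, GRCh37), a nuclear phosphatase, was the highest member. Its mean was 17913 normalised counts, or 3226 per kb, which ranked 154 of 13029 genes. DUSP6 (ENSG00000139318, chromosome 12 from 89741012 to 89746278, minus strand), a cytoplasmic phosphatase selective for ERK, had a mean of 1782 normalised counts and 491.2 per kb, at percentile 87.0. DUSP5 (ENSG00000138166, chromosome 10 from 112257665 to 112271291, plus strand), a nuclear phosphatase also selective for ERK, had a mean of 251.5 normalised counts and 101.5 per kb. It was the only member below the median of all genes, at percentile 47.0. Per kb of canonical transcript, DUSP4 was 6.57 times DUSP6 and 31.8 times DUSP5, and DUSP6 was 4.84 times DUSP5. The sizes depended on the length used. Per kb of coding sequence they were 9.72, 69.4 and 7.14 times.

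The other phosphatases of the family were lower than DUSP4 and DUSP6. All 7 that were looked for had a row, with a median of 94.1 per kb, and none was in the top 10%. DUSP10, which acts mainly on the stress kinases JNK and p38, was the highest of them at 374.9 per kb, followed by DUSP7 at 212.6 per kb and DUSP1, an immediate early phosphatase, at 135.9 per kb. DUSP2 stood at 94.1 and DUSP16 at 78.5 per kb. DUSP9 at 11.3 and DUSP8 at 6.45 per kb were near the bottom of the table, with means of 27.5 and 31.1 normalised counts. DUSP4 was 23.7 times DUSP1 per kb of canonical transcript and 61.0 times per kb of coding sequence.

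The Sprouty and SPRED adaptors, which dampen signalling between receptors and RAF, lay close together. SPRY2 (ENSG00000136158, chromosome 13 from 80910111 to 80915261, minus strand) had a mean of 2143 normalised counts and 937.4 per kb, at percentile 94.0. SPRY4 (ENSG00000187678, chromosome 5 from 141689992 to 141706020, minus strand) had a mean of 3937 normalised counts and 802.7 per kb, at percentile 92.6. SPRED1 (ENSG00000166068, chromosome 15 from 38545037 to 38649450, plus strand), which brings the RAS inhibitor neurofibromin to the membrane, had a mean of 3940 normalised counts and 541.9 per kb, at percentile 88.3. The order of the Sprouty pair depended on the length used. SPRY2 was 1.17 times SPRY4 per kb of canonical transcript and 0.517 times SPRY4 per kb of coding sequence.

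Of the relatives of these adaptors, SPRED2 at 583.9 per kb and SPRY1 at 499.8 per kb stood near the members. SPRED2 was 1.08 times SPRED1 per kb of canonical transcript and 0.711 times per kb of coding sequence. SPRY3 was listed at 27.5 normalised counts and 3.08 per kb, and SPRED3 had no row. NF1, which encodes neurofibromin, the partner of SPRED1, was at 142.8 per kb, which is percentile 57.5, with 43.0 for coding length, 61.7 for the longest transcript and 88.7 without division by length.

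Both ETS transcription factors of the list were in the top 10%. ETV5 (ENSG00000244405, chromosome 3 from 185764103 to 185828107, minus strand) had a mean of 9125 normalised counts and 2235 per kb, which ranked 253 of 13029 genes. ETV4 (ENSG00000175832, chromosome 17 from 41605212 to 41656988, minus strand) had a mean of 2930 normalised counts and 1255 per kb, at percentile 95.9. ETV1, the third gene of their subfamily, was at 204.4 per kb, so ETV5 was 10.9 times and ETV4 6.14 times ETV1. ETV5 was 1.78 times ETV4 per kb. These ratios depended on the length used. Per kb of coding sequence ETV5 was 6.47 times and ETV4 2.19 times ETV1, and ETV5 was 2.96 times ETV4.

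The ternary complex factor ELK1, an ETS protein that ERK phosphorylates directly, was at 564.8 per kb, and its relatives ELK3 and ELK4 were at 266.7 and 165.1 per kb. ETS1 at 628.0 per kb was the highest of the other ETS factors, and ETS2 the lowest at 61.0 per kb. ETV5 was above each of the 6 other ETS factors looked for at every length used. ETV4 was above all of them per kb of transcript, but per kb of coding sequence it stood at 2018 and ETS1 at 2218. Without division by length ETV4 was also the lower one, with 2930 mean normalised counts against 3228 for ETS1.

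EGR1 (ENSG00000120738, chromosome 5 from 137801168 to 137804992, plus strand), a zinc finger transcription factor induced within minutes by ERK, had a mean of 1139 normalised counts and 363.0 per kb, at percentile 81.9. Its relatives differed. EGR3 was at 301.5 per kb and EGR2 at 14.8 per kb, with EGR1 1.20 times EGR3 per kb of canonical transcript but 0.596 times per kb of coding sequence.

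FOSL1 (ENSG00000175592, chromosome 11 from 65659520 to 65668044, minus strand) encodes FRA1, an AP-1 subunit that ERK also stabilises as a protein. It had a mean of 1019 normalised counts and 598.7 per kb, at percentile 89.7, just under the top 10%. Among the FOS genes, FOSL2 followed at 341.3 per kb, FOS at 230.1 per kb and FOSB at 12.0 per kb. FOSL1 was 1.75 times FOSL2 per kb of canonical transcript and 0.535 times per kb of coding sequence, and 2.60 times FOS. Of the JUN genes, whose products pair with FOS proteins, JUND was highest at 769.0 per kb, then JUNB at 225.2 and JUN at 92.9 per kb. JUND was 1.28 times FOSL1. FOSL1 was 6.45 times JUN per kb of canonical transcript and 4.11 times per kb of coding sequence.

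Promoters were in the RefSeq table used here for DUSP6, SPRY2, SPRY4, SPRED1 and EGR1, 250 bases before to 50 bases after the start. DUSP4, DUSP5, ETV4, ETV5 and FOSL1 had no entry. EGR1 was the only one of the 5 genes with a CArG box, the site of serum response factor, through which ELK1 acts. The box was searched by its consensus on both strands, and 1.29% of the 35116 promoters of this length hold one. EGR1 had 2, and the windows are shown because they carry the textbook route from ERK to this gene. They lie on the plus strand of GRCh37 at chr5:137801053-137801082 and chr5:137801075-137801104, overlap each other, and have the box in capitals. The same letters stand in the RefSeq promoter of GRCh38.p14.
EGR1 first box: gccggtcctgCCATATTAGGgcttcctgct
EGR1 second box: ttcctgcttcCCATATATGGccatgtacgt

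Further motifs were searched on both strands. TGACG is the core of the cyclic AMP response element, and 24.6% of all promoters hold it. It was present in only the first of 3 promoters of SPRY2. The promoter of SPRY4 also held it, and that of EGR1 did at 2 places. CCGGAAG, an ETS motif found in 10.3% of all promoters, and TGANTCA, an AP-1 motif found in 7.71%, were in none of the promoters of these 5 genes. A match or its absence describes these letters in this window. Other forms of an ETS site were not searched. Both EGR1 windows above hold the same ttcc, in the stretch where they overlap, which reads GGAA on the other strand, a part of CCGGAAG. The second window also holds these letters where its left flank runs into the box.

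The feedback genes had a higher median than the components of the ERK pathway that were looked for, and what drives their levels was not tested. Of 23 genes looked for, from the receptors down to MEK and ERK, 20 had a row, with a median of 180.7 per kb, 14 above the median of all genes and 4 in the top 10%. The median of the feedback genes was also the higher one with the longest transcript (667.3 per kb, against 126.1 per kb), with coding length (2143 per kb, against 295.9 per kb) and without division by length (2537 mean normalised counts, against 649.1). Canonical transcripts of the feedback genes had from 2 (SPRY2) to 13 (ETV5) exons. Those of the components had from 6 (GRB2) to 58 (NF1), and the part of exon number in these levels was not tested. The receptor tyrosine kinases had the lowest median of the roles above RAF. ERBB3 was at 463.5, ERBB2 at 141.0 and MET at 111.6 per kb, EGFR was at 17.5 per kb, and PDGFRB, AXL and KIT had no row. Of the adaptors, the phosphatase PTPN11 was highest at 832.3 per kb. NRAS was at 821.5 and HRAS at 192.5 per kb.

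ARAF and BRAF were at 195.5 and 91.3 per kb, and BRAF, the mutated kinase gene of this line, was at percentile 43.7, with 36.4 for the longest transcript and 66.2 without division by length. MAPK3, which encodes ERK1, was at 213.3 per kb. For MEK, MAP2K2 was at 950.8 and MAP2K1 at 233.1 per kb. DUSP4 was above every kinase, RAS and receptor gene of these lists at every length used. ETV5 was so per kb of transcript, but per kb of coding sequence it stood at 5964, with NRAS at 6268. The 4 genes grouped as other ERK output were all in the top 10%. CCND1, which encodes cyclin D1, was at 5572 per kb, 1.73 times DUSP4. SH2B3 was at 2893, PHLDA1 at 1234 and MYC at 1200 per kb. Immediate early and AP-1 genes that are not members formed a separate group and were mostly lower. Of 10 looked for, 9 had a row, and 1 of these, JUND, was in the top 10%. IER2 was at 349.2 per kb and IER3 had no row.

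**Figure D2:**
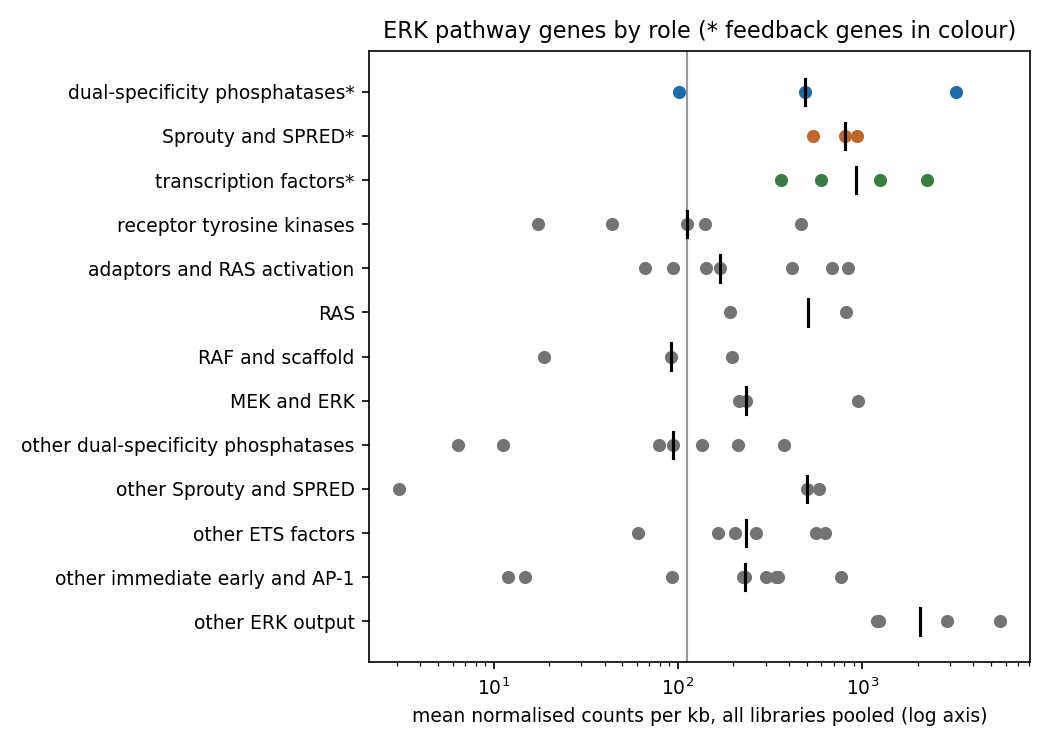
Levels of ERK pathway genes by role, as the authors' mean normalised count per kb of canonical transcript on a log axis, 1 point per gene over all 6 libraries. Black ticks are role medians, the grey line is the median of all genes (111.6 per kb), and feedback genes are in colour. The medians of the 3 feedback groups (491.2, 802.7 and 926.9 per kb) lie above those of receptors (111.6 per kb) and of RAF and its scaffold (91.3 per kb), as they do with each other length used. The RAS median (507.0 per kb) is over only 2 genes, NRAS at 821.5 and HRAS at 192.5 per kb. It lies above that of the phosphatases, and with coding length (3315 per kb) above all 3 (1559, 2958 and 1636 per kb).

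The labelled cell type was checked against its markers. Of 7 melanocyte and melanoma markers 6 had a row, all in the top 10%, among them PMEL at 11535 and SOX10 at 6839 per kb, and TYRP1 had none. None of 10 markers of fibroblasts, keratinocytes, endothelium and leukocytes had a row, although PECAM1 had no ID in the gene name table and could not be looked up.

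DUSP4 stayed between percentile 98.7 and 99.6 and ETV5 between 97.8 and 99.1 under all 6 settings. FOSL1 ranged more widely, from 79.0 without division by length to 91.4 with the longest transcript, and SPRED1 from 86.9 to 96.4. EGR1, with 1 annotated transcript, went from 74.9 with coding length to 84.6. DUSP5 reached percentile 51.8 with the longest transcript and was below the median under the other 5 settings.

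**Figure D3:**
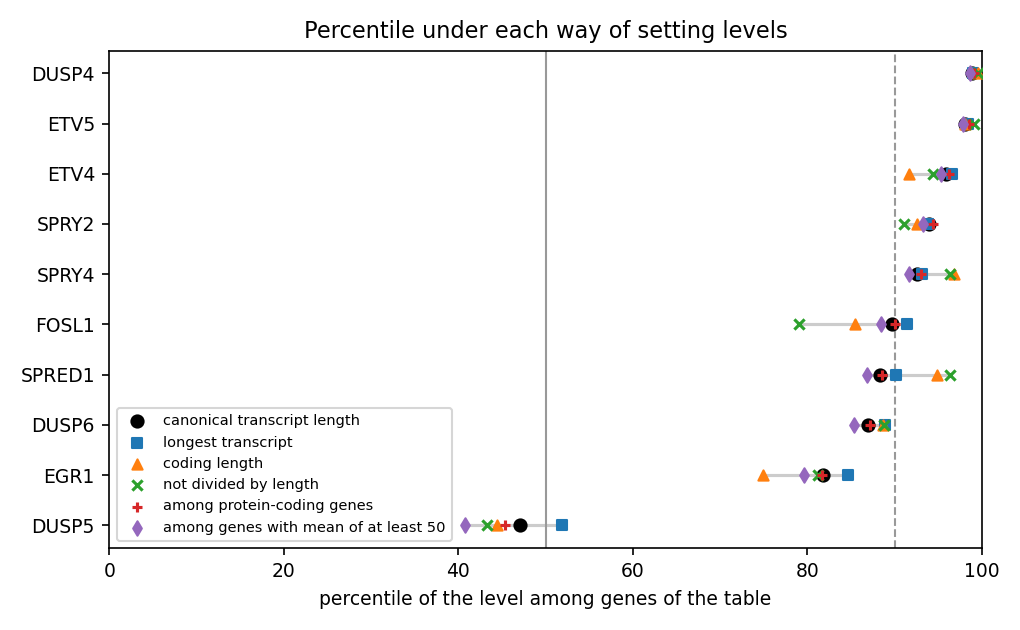
Percentile of each feedback gene among the genes of the table under 6 ways of setting the level, 1 symbol per setting, with a grey line from the lowest to the highest. The solid line is percentile 50 and the dashed line percentile 90. DUSP4, ETV5, ETV4, SPRY2 and SPRY4 stay right of the dashed line throughout, and DUSP5 lies near the solid one.

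Some reads may be shared with neighbouring genes. The exons of DUSP6 overlap those of an annotated antisense RNA (ENSG00000274021) over 1105 of 3859 bases. Those of ETV4 overlap DHX8 on the opposite strand over 68 of 3515 bases, and those of ETV5 overlap DGKG on the same strand over 164 of 5773 bases. DHX8 and DGKG had a row in the table. The antisense RNA had none, and it may be absent from the annotation used for counting, so its level is unknown. No source used here states if reads were counted by strand, and the part of shared reads in these levels was not tested.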

How the data were processed

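RNA of 3 siDANCR and 3 control SK-MEL-28 libraries was sequenced. Per the labels, the submitters' processing notes name Trim Galore 0.4.4, Bowtie 1.1.2, hg19 and DESeq2. For the counting tool, the annotation and the handling of reads across exon junctions nothing is stated in the sources used here, and loss of such reads could lower genes with many short exons. The deposited value used is a signal, the read count scaled for depth by the authors and averaged over all 6 libraries, which does not correct for length. The other 5 columns of numbers hold the authors' comparison (log2 fold change, its error, a statistic and p-values) and were not used, nor was a smaller sheet of 98 genes with the same columns. There are 0 columns of values per library, so no test was run. The lowest mean in the table was 23.1, and no source used here states a filter on low values. A gene without a row may be low, not detected or absent from the annotation used for counting.

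IDs were matched without version to GENCODE v44 lifted to GRCh37 (13161 of 13449 matched), which also gave positions and lengths. The level is the mean per kb of the canonical transcript. The percentile is the share, at or below that level, of the 13029 genes with a canonical transcript. The ranking into percentiles was run on simulated levels of known rank, which did not exercise the division by length. Alternatives were the longest transcript, coding length, no division by length, protein-coding genes only and genes with a mean of at least 50. The members, lists and alternatives were chosen with earlier results of these data known. All members were to be named, relatives of the members with their values, and at most 3 genes of each other role in order of level. Some genes of these lists are not reported here and were left out of their counts. Outside that rule EGFR, NF1, MYC, MAPK3, JUN and JUNB were named after their values were seen. Python 3.11.15, pandas 2.3.3, numpy 2.4.6, scipy 1.17.1 and matplotlib 3.10.9 were used.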

Additional observations from a re-analysis of the deposited data

How the results depend on the processing

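No paired analysis was possible because the only value of a gene is a mean over both groups, and for the same reason no library could be left out in turn. All 10 members were found by Ensembl ID and by symbol. The number of members above the median level of all genes was 9, and 10 with the longest annotated transcript, where DUSP5 passed it. The number in the top 10% was 5, and between 5 and 7 under the alternatives, with 7 for the longest transcript. Among the members, DUSP4, ETV5 and DUSP5 kept their places at each length used, and the order of the others changed with coding length and with no division by length. The order of SPRY2 and SPRY4, of SPRED1 and SPRED2, of FOSL1 and FOSL2, and of EGR1 and EGR3 turned both with coding length and with no division by length, since canonical transcripts differ in their untranslated parts. ETV4 passed below ETS1 with both of these, and ETV5 below NRAS with coding length. Levels carry no error between libraries, so small differences in level or percentile cannot be read as differences.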
